A study of Mus musculus with 8 samples.

Results

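The 10 genes described here carry iron through the intestinal epithelium, store it, release it from heme or set the level of the others. They were taken by name as Slc40a1, Slc11a2, Heph, Cybrd1, Fth1, Ftl1, Tfrc, Hmox1, Aco1 and Epas1, and they are 10 of the 54532 genes in the count table. Of these, 7 passed edgeR's filter on low counts and were tested among 9855 genes. Cybrd1, Ftl1 and Hmox1 did not pass it and are given as counts. The genes were named without use of their values, but with earlier results from these libraries known.

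The libraries came from intestinal epithelial cells of mice at lactation day 5, 4 labelled WT and 4 labelled Rank-knockout, and the comparison asks how loss of Rank in the gut epithelium of a nursing mother changes these genes. Rank, the receptor activator of NF-κB, is encoded by Tnfrsf11a. In the mutants a floxed Rank allele was deleted with a Cre under the Villin1 promoter, which is active in intestinal epithelial cells. The controls were female Rank WT littermates, all mice were on a C57BL/6J background, and the dams had been mated to wild-type males. The exact age, the stretch of intestine and whether each library came from its own dam are not given in the sources used here, so that p-values measure the spread between these 8 samples, and the deletion is restricted to the epithelium, so that Rank in other cells is left in both groups.

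Total counts ran from 1530781 to 4335653 in WT and from 2103716 to 4321154 in Rank-knockout libraries. Tnfrsf11a itself averaged 60.2 ± 17.5 CPM over the WT libraries and 37.7 ± 8.57 CPM over the Rank-knockout libraries (SD, n = 4), with overlap, and was called lower at -0.67 ± 0.22 on the log2 scale (SE, edgeR, adjusted p = 0.0322). Because reads come from the 3′ end of the transcript they need not cover the deleted part, so this is no check of the labels. All 12 villus enterocyte markers examined were lower in Rank-knockout, with a median log2 fold change of -1.12, and all 12 replication and cell cycle markers were higher, with a median of 1.17. With the libraries scaled to these villus markers instead, 8094 of the 9855 genes tested were called higher. The epithelial label held in that Epcam and Cdh1 were abundant in every library, with 1373 to 2227 CPM of Epcam (CPM are counts per 1000000, with library sizes scaled by the TMM method). Of other cell types, the 8 T cell markers summed to 171 to 262 CPM in WT and 116 to 187 CPM in Rank-knockout libraries, most of it Gzma, and the 8 stromal and muscle markers to 3.96 to 6.80 and 1.78 to 10.8 CPM. Low counts were present for the macrophage list. Ptprc had 85 counts over the WT and 76 over the Rank-knockout libraries, with means of 9.72 and 6.10 CPM. C1qa had 37 and 51 counts, with means of 4.76 and 3.93 CPM. Counts were also low for red blood cells (Hbb-bs, 19 and 54 counts) and endothelium (Plvap, 8 and 18 counts), while Adgre1, Cd163, Slc4a1 and Cdh5 had 0 counts in all 8 libraries. The part of these cells in the results was not tested. In bulk samples, fewer cells of a type and less RNA per cell cannot be told apart.

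Dietary iron enters the enterocyte at the brush border. Duodenal cytochrome b (Cybrd1) reduces ferric to ferrous iron, the divalent metal transporter DMT1 (Slc11a2) carries it in, ferritin (Fth1 and Ftl1) stores it, and ferroportin (Slc40a1) exports it at the basolateral side, where hephaestin (Heph) oxidizes it for transferrin. Dividing cells take up transferrin-bound iron through the transferrin receptor (Tfrc). The iron regulatory proteins, encoded by Aco1 and Ireb2, bind a short RNA hairpin called the iron-responsive element when iron is scarce. Bound in the 5′ untranslated region (UTR) the hairpin lowers translation, and bound in the 3′ UTR of Tfrc it protects the mRNA from decay. Epas1 encodes a hypoxia-inducible factor subunit that raises transcription of iron uptake genes in the enterocyte, and Hmox1 encodes the enzyme that opens the heme ring.

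The hairpins of these mRNAs are shown because the iron regulatory proteins named above are known to bind hairpins of this kind. Each line gives 30 bases of the transcript (GENCODE M21, GRCm38), 5′ to 3′, with the six-base loop in capitals. A match needed a C, a stem of 5 bases, a loop beginning CAGTG with any base but G in sixth place, and the complementary stem. In the stem G paired to T was allowed, and whether the C was unpaired was not checked. The 5′ UTR matches of Slc40a1, Fth1, Ftl1 and Epas1 were these:
Slc40a1, 1:45925464-45925493, minus strand: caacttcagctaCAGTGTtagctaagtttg
Fth1, 19:9982732-9982761, plus strand: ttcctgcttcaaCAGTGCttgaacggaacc
Ftl1, 7:45459778-45459807, minus strand: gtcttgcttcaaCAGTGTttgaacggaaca
Epas1, 17:86753768-86753797, plus strand: tacaatcctcggCAGTGTcctgagactgta

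The 3′ UTR of Tfrc held 4 matches, and that of Slc11a2 held 1:
Tfrc, 16:32631219-32631248, plus strand: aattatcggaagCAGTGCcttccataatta
Tfrc, 16:32631598-32631627, plus strand: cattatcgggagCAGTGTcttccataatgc
Tfrc, 16:32631663-32631692, plus strand: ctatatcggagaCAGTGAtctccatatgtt
Tfrc, 16:32631710-32631739, plus strand: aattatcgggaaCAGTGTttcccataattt
Slc11a2, 15:100395152-100395181, minus strand: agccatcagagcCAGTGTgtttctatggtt

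The Epas1 and Slc11a2 hairpins matched only with 1 unpaired base allowed on the 3′ side of the stem. Without that base, 23 of 20916 genes with an annotated 5′ UTR (0.11%) and 100 of 21045 genes with an annotated 3′ UTR (0.475%) held a match, and with it 72 genes (0.344%) and 310 genes (1.47%) did. The Slc11a2 element was present in 1 of its 3 annotated transcripts with a 3′ UTR, and each Tfrc element in 1 of 2. Of annotated transcripts with a 5′ UTR, the element was present in 1 of 4 for Slc40a1, 1 of 2 for Ftl1 and 4 of 5 for Fth1. The gene counts do not separate transcripts with and without an element. A match of letters is a description and no measure of binding.

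Slc11a2 (ENSMUSG00000023030, chromosome 15, 100387898 to 100425072), the brush border iron importer, was lower in Rank-knockout. Its levels were 266, 150, 149 and 101 CPM in WT libraries 1 to 4 and 69.5, 102, 87.9 and 112 CPM in Rank-knockout libraries 1 to 4. WT library 1 stood highest and WT library 4 lay among the Rank-knockout libraries, so the genotypes overlapped. The log2 fold change, Rank-knockout minus WT, was -0.84 ± 0.25 (SE, n = 4 per genotype, edgeR quasi-likelihood test, Benjamini-Hochberg adjusted p = 0.0243). The call was lost without WT library 1, Rank-knockout library 1 or Rank-knockout library 3, with log2 fold changes of -0.56, -0.72 and -0.82 (edgeR, adjusted p = 0.0586, 0.0805 and 0.063), and with library totals as sizes, at -0.65 (edgeR, adjusted p = 0.0649).

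Cybrd1 (ENSMUSG00000027015, chromosome 2, 71117923 to 71142926), the ferric reductase of the duodenal brush border, was near the limit of detection. It had 5, 5, 0 and 0 counts in WT libraries 1 to 4 and 5, 1, 3 and 2 counts in Rank-knockout libraries 1 to 4. As a share of the pooled totals, this was 10 counts or 1.10 CPM in WT (95% exact Poisson interval 0.528 to 2.02, counting error only) and 11 counts or 0.875 CPM in Rank-knockout (0.437 to 1.57). A difference between genotypes was not detectable at this depth.

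**Figure D1:**
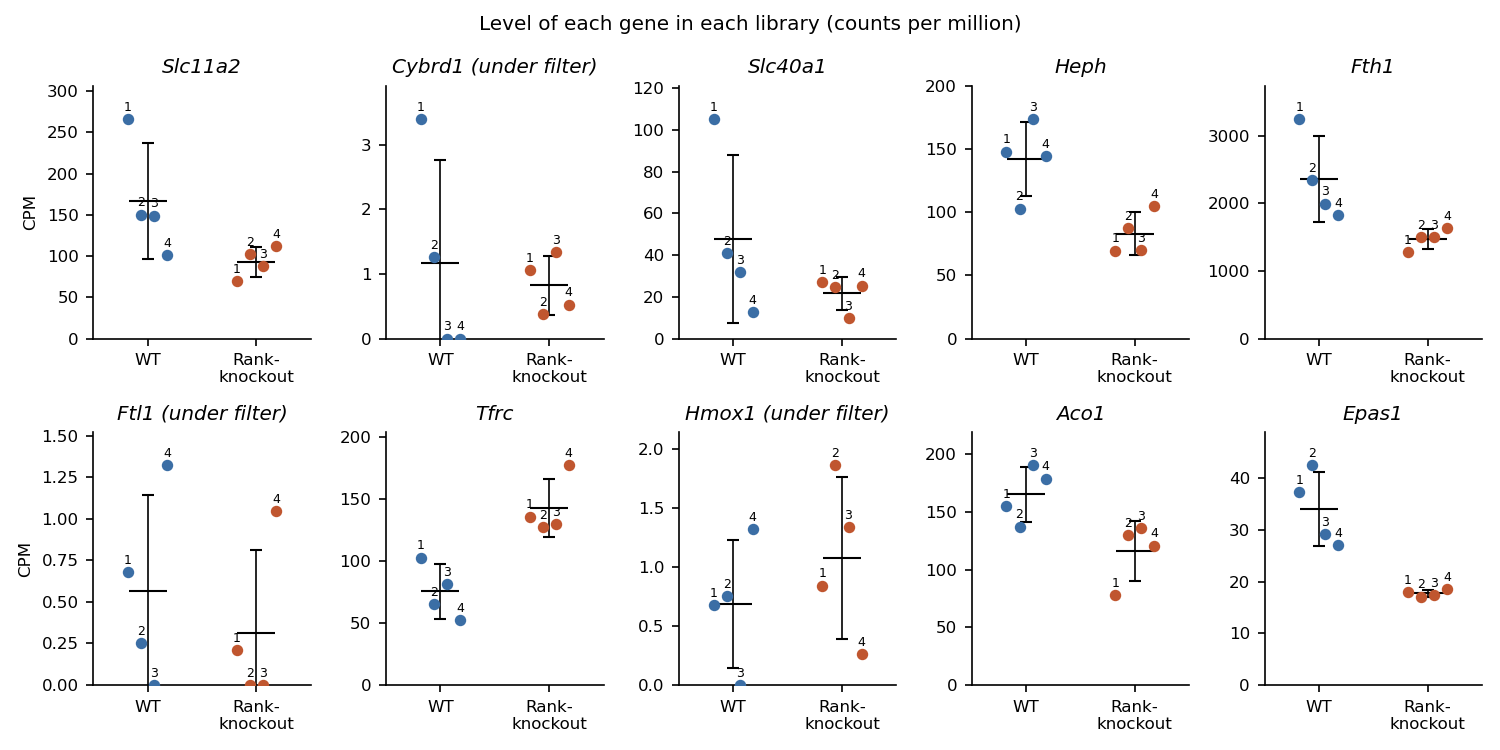
Level of each of the 10 genes in CPM (y axis, from 0) in the 4 WT (blue) and 4 Rank-knockout (orange) libraries, with points numbered by library, horizontal bars for the mean and whiskers for 1 SD. On this scale, though not relative to villus markers, Fth1, Epas1 and Aco1 lie lower in every Rank-knockout library than in any WT library, and Tfrc lies higher on both scales in every Rank-knockout library than in any WT library, while Slc40a1 spreads from 12.5 to 105 within WT; panels marked under filter hold 0 to 5 counts per library.

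Slc40a1 (ENSMUSG00000025993, chromosome 1, 45908068 to 45926523), the only known cellular iron exporter, varied more between WT libraries than between the genotypes. Its levels were 105, 41.0, 31.8 and 12.5 CPM in WT libraries 1 to 4 and 27.0, 24.6, 9.81 and 25.4 CPM in Rank-knockout libraries 1 to 4, from 155, 163, 47 and 19 counts and from 128, 66, 22 and 97 counts. WT library 1 was far above the rest, WT library 4 was below 3 of the 4 Rank-knockout libraries, and Rank-knockout library 3 was the lowest of all 8. The log2 fold change was -1.09 ± 0.60 (SE, n = 4 per genotype) and did not pass the test (edgeR, adjusted p = 0.209). Its estimate depended on WT library 1, without which it was -0.45 (edgeR, adjusted p = 0.421), and on WT library 4, without which it was -1.42 (edgeR, adjusted p = 0.0608).

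The library-to-library pattern of Slc40a1 was close to that of Pdx1, a transcription factor of the duodenum and pancreas. Among 9456 genes with a mean of at least 5 CPM, the deviations of log2 CPM from the genotype means followed those of Slc40a1 most closely for Tm4sf20, Pdx1 and Elovl7, with Pearson r of 0.98, 0.96 and 0.96 over the same 8 libraries. These values share libraries and depth and are given as a description. Pdx1 stood at 39.4, 10.8, 10.8 and 5.94 CPM in WT libraries 1 to 4 and at 9.90, 8.93, 2.68 and 9.41 CPM in Rank-knockout libraries 1 to 4, with the highest and the lowest libraries the same as for Slc40a1. Pdx1 did not differ past the threshold either, at -1.0 on the log2 scale (edgeR, adjusted p = 0.204). The other 6 genes of the proximal small intestine list were mixed. Onecut2 was highest in WT library 1 and lowest in Rank-knockout library 3, at 625 and 354 CPM, as Slc40a1 and Pdx1 were, and Gata4 and Adh6a were also highest in WT library 1, at 42.1 and 536 CPM, but lowest in Rank-knockout library 1. Lct and Slc2a2 were highest in WT library 4, at 2661 and 938 CPM, and Fabp1 in WT library 3, at 5332 CPM. Of the 7 proximal genes 3 were called lower, and of the 5 ileal genes 2 were tested and 1 was called lower. Both tested ileal genes, Slc51a and Slc51b, had estimates below 0. The ileal gene Fabp6, under the filter, went the other way without overlap. It stood at 0.66 to 2.26 CPM in WT and 3.35 to 9.69 CPM in Rank-knockout libraries, from 13 and 85 counts. The part of the stretch of intestine in the level of Slc40a1 was not tested.

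**Figure D2:**
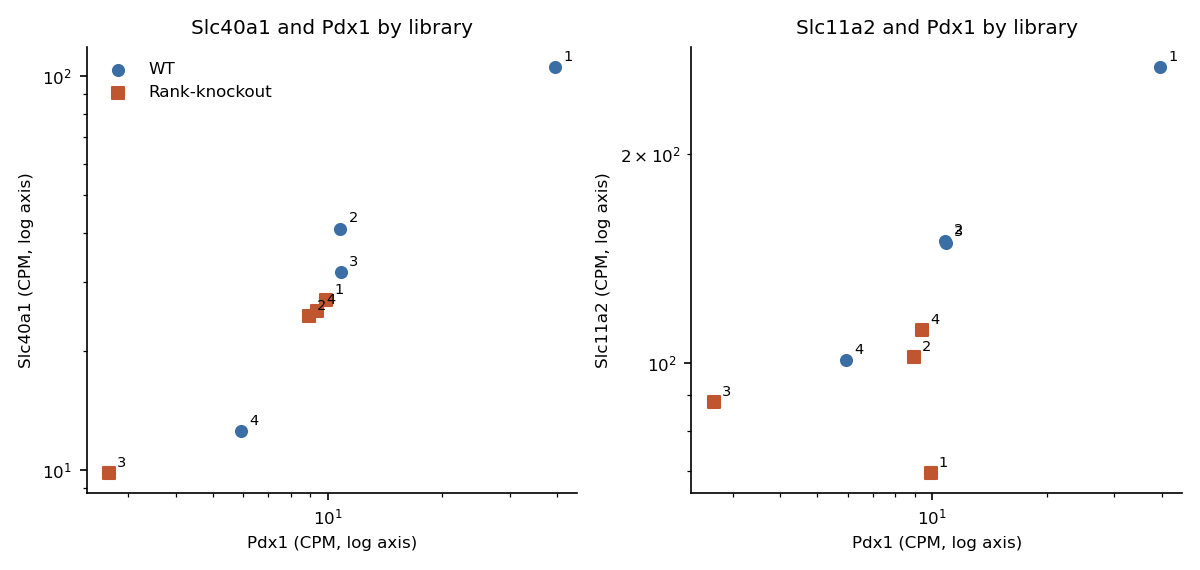
Slc40a1 (left) and Slc11a2 (right) against Pdx1, all in CPM on log axes, with 1 point per library numbered within its genotype (blue circles WT, orange squares Rank-knockout). Slc40a1 runs from 9.81 CPM in Rank-knockout library 3 to 105 CPM in WT library 1 along with Pdx1 from 2.68 to 39.4 CPM; in the right panel Rank-knockout library 1 has the lowest Slc11a2 at 69.5 CPM without the lowest Pdx1.

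Heph (ENSMUSG00000031209, chromosome X, 96455359 to 96574485), the copper oxidase that works with ferroportin, was lower in Rank-knockout and did not share the spread of Slc40a1. It measured 148, 103, 174 and 145 CPM in WT libraries 1 to 4 and 69.7, 87.5, 70.0 and 105 CPM in Rank-knockout libraries 1 to 4. Rank-knockout library 4 lay just above WT library 2, and the other libraries were apart by genotype. This was a log2 fold change of -0.77 ± 0.18 (SE, n = 4 per genotype, edgeR, adjusted p = 0.00517), and it stayed past the threshold when any 1 library was left out. Ceruloplasmin (Cp), the plasma relative of hephaestin, had 1 count in all, in a Rank-knockout library.

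Fth1 (ENSMUSG00000024661, chromosome 19, 9980598 to 9985098), the ferritin heavy chain that oxidizes iron for storage, was lower in every Rank-knockout library. Levels were 3249, 2347, 1997 and 1824 CPM in WT libraries 1 to 4 and 1277, 1496, 1496 and 1632 CPM in Rank-knockout libraries 1 to 4. The WT libraries spread widely with library 1 on top, the Rank-knockout libraries lay close together, and the groups did not overlap. On the log2 scale the difference was -0.67 ± 0.18 (SE, n = 4 per genotype, edgeR, adjusted p = 0.00987), and without WT library 1 it was -0.50 (edgeR, adjusted p = 0.0457). The gene whose deviations from the genotype means were most like those of Fth1 was Slc11a2, with r = 0.95 over 8 libraries, followed by Ice2 and Vps29 at 0.95 and 0.94.

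Ftl1 (ENSMUSG00000050708, chromosome 7, 45457944 to 45459884), the ferritin light chain, could not be measured. It had 1, 1, 0 and 2 counts in WT libraries 1 to 4 and 1, 0, 0 and 4 counts in Rank-knockout libraries 1 to 4. Of the 50-base words in the last 400 bases of its transcripts 73.9% occur in other annotated genes, chiefly processed copies of ferritin, against 6.66% for Fth1 and none for the other 8 genes. The 18 ferritin copies and genes that share these words had 7 counts in all. How far reads that fit several places were left out of the Ftl1 count was not tested, so these values are no measure of its expression.

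Tfrc (ENSMUSG00000022797, chromosome 16, 32608920 to 32632794), the transferrin receptor, was the gene of this group that was higher in Rank-knockout. Levels were 103, 65.1, 81.3 and 52.2 CPM in WT libraries 1 to 4 and 136, 127, 129 and 177 CPM in Rank-knockout libraries 1 to 4. Every Rank-knockout library was above every WT library. The fitted log2 difference was 0.93 ± 0.19 (SE, n = 4 per genotype, edgeR, adjusted p = 0.00234), or 1.90-fold, and it kept its direction and passed the test in all 18 alternative fits. Genes whose deviations followed those of Tfrc most closely were Acer3, Vezt and Car9, with r of 0.98, 0.97 and 0.97 over 8 libraries.

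Tfrc is known to be abundant in dividing cells, and the cell cycle markers were also higher in Rank-knockout. Their summed level was 384 to 619 CPM in WT and 920 to 1539 CPM in Rank-knockout libraries. Within Rank-knockout, library 4 had the highest Tfrc and the lowest sum of cell cycle markers. Per 1000 counts of these markers Tfrc gave 176, 105, 149 and 136 counts in WT libraries 1 to 4 and 88.1, 108, 109 and 192 counts in Rank-knockout libraries 1 to 4, so that on this base the genotypes overlapped, with means of 142 ± 29.6 and 124 ± 46.3 (SD, n = 4). Per 1000 counts of the villus markers Tfrc gave 3.37 ± 1.09 counts in WT libraries and 13.0 ± 1.93 counts in Rank-knockout libraries (SD, n = 4), without overlap. Red blood cell precursors also carry much Tfrc, and their 7 markers found in the table summed to 1.35 to 14.3 CPM in WT and 1.31 to 16.2 CPM in Rank-knockout libraries, and Slc4a1 was at 0. The part of dividing or red blood cells in the Tfrc difference was not tested.

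Fth1 and Tfrc, which iron regulatory proteins are known to act on in opposite ways, were called in opposite directions on the TMM scale, while scaled to the villus markers both estimates were above 0. Their ratio within a library is free of any scaling between libraries. There were 31.7, 36.0, 24.6 and 35.0 Fth1 counts per Tfrc count in WT libraries 1 to 4 and 9.42, 11.8, 11.6 and 9.23 in Rank-knockout libraries 1 to 4. The lowest WT library was above the highest Rank-knockout library, with means of 31.8 ± 5.18 and 10.5 ± 1.36 (SD, n = 4). The ratio is given as a description, since both genes were tested above. The Fth1 hairpin is in the 5′ UTR, where binding acts on translation, which counts of mRNA do not measure.

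**Figure D3:**
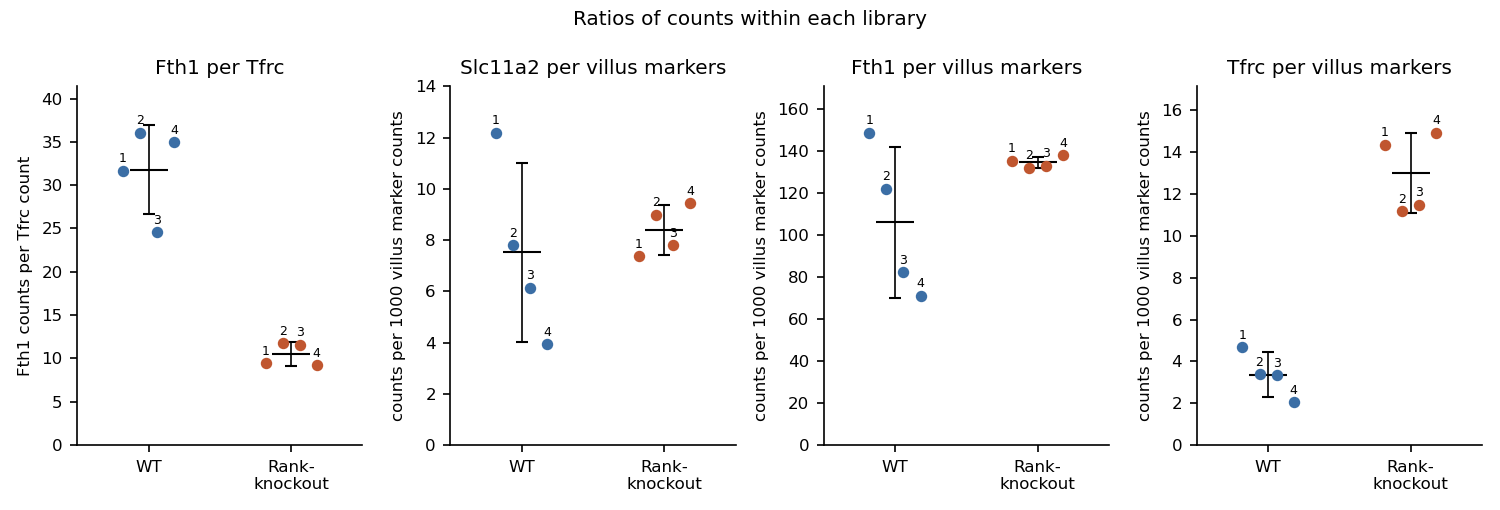
Ratios of counts within each library, with linear y axes from 0: Fth1 counts per Tfrc count (left), and Slc11a2, Fth1 and Tfrc counts per 1000 counts of the 12 summed villus markers; points are numbered libraries, horizontal bars the mean and whiskers 1 SD. Fth1 per Tfrc separates by genotype, at 24.6 to 36.0 in WT and 9.23 to 11.8 in Rank-knockout, and per villus marker counts Slc11a2 and Fth1 overlap between genotypes while Tfrc does not.

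Aco1 (ENSMUSG00000028405, chromosome 4, 40143081 to 40198338) encodes the cytosolic aconitase that becomes iron regulatory protein when it loses its iron-sulfur cluster. Levels were 155, 137, 190 and 179 CPM in WT libraries 1 to 4 and 77.9, 130, 136 and 121 CPM in Rank-knockout libraries 1 to 4. The groups met without overlap, with 137 CPM in the lowest WT and 136 CPM in the highest Rank-knockout library. The log2 fold change was -0.51 ± 0.18 (SE, n = 4 per genotype, edgeR, adjusted p = 0.0378). The call was lost when WT library 1, 3 or 4 or Rank-knockout library 1 was left out, with log2 fold changes of -0.56, -0.45, -0.50 and -0.35 and adjusted p of 0.0551, 0.1, 0.0795 and 0.107 (edgeR), and also with library totals as sizes (adjusted p = 0.165), without the most abundant genes (0.103) and when thinned to the shallowest library (0.0853).

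Epas1 (ENSMUSG00000024140, chromosome 17, 86753700 to 86833410), the hypoxia-inducible factor subunit of iron uptake, was lower in every Rank-knockout library. Levels were 37.4, 42.5, 29.1 and 27.1 CPM in WT libraries 1 to 4 and 17.9, 17.1, 17.4 and 18.6 CPM in Rank-knockout libraries 1 to 4. The Rank-knockout libraries were nearly alike, and the groups did not overlap. This was a log2 fold change of -0.96 ± 0.19 (SE, n = 4 per genotype, edgeR, adjusted p = 0.00202), and without any 1 library it lay between -1.08 and -0.82 and stayed past the threshold. Endothelial cells also express Epas1; the 8 endothelial markers summed to 1.32 to 10.9 CPM in WT and 1.78 to 7.07 CPM in Rank-knockout libraries, and Cdh5 was at 0.

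Hmox1 (ENSMUSG00000005413, chromosome 8, 75093621 to 75100589), the inducible heme oxygenase, was hardly detected. It had 1, 3, 0 and 2 counts in WT libraries 1 to 4 and 4, 5, 3 and 1 counts in Rank-knockout libraries 1 to 4. As a share of the pooled totals, these came to 0.66 CPM in WT (95% exact Poisson interval 0.242 to 1.44) and 1.03 CPM in Rank-knockout (0.551 to 1.77). The constitutive Hmox2 was at 23.1 to 31.3 CPM in WT and 20.1 to 26.1 CPM in Rank-knockout libraries and did not pass the test (log2 fold change -0.18 ± 0.18 SE, n = 4 per genotype, edgeR, adjusted p = 0.502). Hmox1 is abundant in macrophages, whose 11 markers summed to 10.8 to 36.7 CPM in WT and 11.2 to 26.1 CPM in Rank-knockout libraries.

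Of the 7 genes tested 6 were called, where 30.4% of all 9855 genes tested were. Tfrc was called higher, where 15.8% of all genes were, and Slc11a2, Heph, Fth1, Aco1 and Epas1 were called lower, where 14.6% of all genes were, and none of these 5 was called lower when libraries were scaled to the villus markers. Libraries of the 2 genotypes did not overlap for 4 of the 7, Fth1, Tfrc, Aco1 and Epas1, against 28.8% of all genes tested. The median log2 fold change was -0.77 over the 7 genes and 0.02 over all genes tested.

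The sign of 5 of the 7 values, those of Slc11a2, Heph, Fth1, Aco1 and Epas1, turned with the choice of reference, and those of Tfrc and Slc40a1 did not. The 12 villus markers summed to 19232 to 25628 CPM in WT and 9436 to 11839 CPM in Rank-knockout libraries, and scaling the libraries to them, an alternative added after the data were seen, moved the median of all genes by 1.04 on the log2 scale. On that scale the log2 fold changes of Slc11a2, Heph, Fth1 and Epas1 were 0.16, 0.28, 0.34 and 0.06, none past the threshold (edgeR, adjusted p = 0.553, 0.156, 0.143 and 0.813). Aco1 was then higher at 0.53 (edgeR, adjusted p = 0.01) and Tfrc higher at 1.95 (edgeR, adjusted p = 3.66e-06). A change of scale moves all genes by nearly the same amount, so values measured from the median of all genes tested are almost fixed by construction; over 4 other scalings, the villus one among them, Slc11a2 was at -0.90 to -0.87, Heph at -0.80 to -0.78, Fth1 at -0.72 to -0.70, Epas1 at -0.995 to -0.978 and Tfrc at 0.89 to 0.90. In raw counts, Fth1 gave 149, 122, 82.3 and 71.2 counts per 1000 villus marker counts in WT libraries 1 to 4 and 135, 132, 133 and 138 in Rank-knockout libraries 1 to 4. Fth1 followed the villus markers closely across the Rank-knockout libraries and poorly across the WT libraries. The part of villus cell content in the lower values was not tested.

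**Figure D4:**
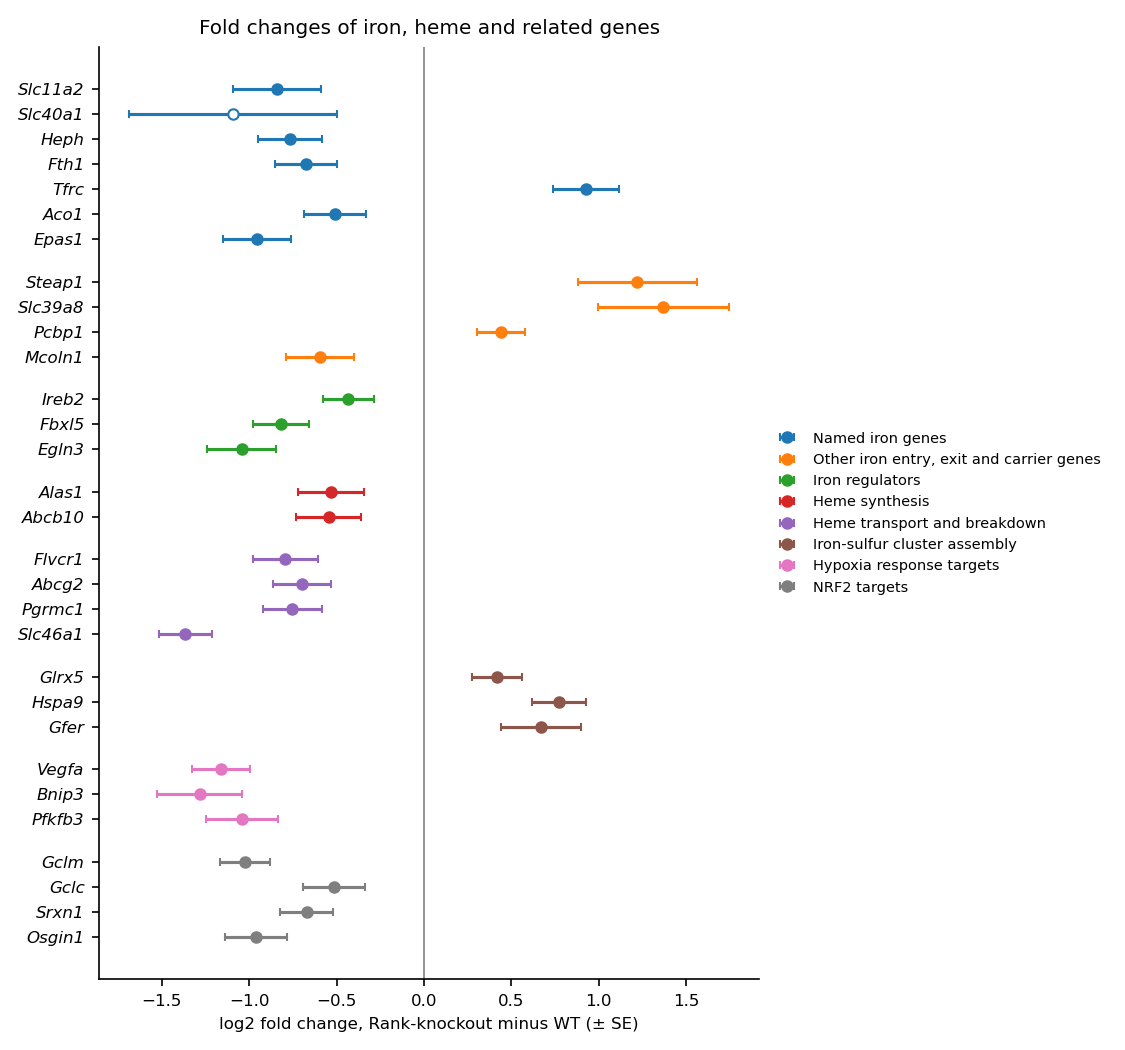
Log2 fold change, Rank-knockout minus WT (x axis), with SE as whiskers (n = 4 per genotype), for the 7 tested genes and, in groups by colour, called genes of related lists that the text names; filled points passed the threshold and the open point, Slc40a1 at -1.09, did not. Tfrc at 0.93 stands opposite the other filled points of its group, which lie between -0.96 and -0.51; scaled to the villus markers Aco1 is called higher and the other 4 are not called.

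The wider lists, called wider iron and heme genes here, held 116 further genes, of which 87 were tested. Besides iron and heme genes they hold 15 targets of hypoxia-inducible factors and 10 of NRF2. In Rank-knockout 8 were called higher and 17 lower, with a median log2 fold change of -0.09. Of the 17 lower calls, 3 came from the hypoxia list and 4 from the NRF2 list. Over all genes 15.8% were called higher and 14.6% lower, shares that also stand beside the counts of each list below. Scaled to the villus markers 67 were called higher and 0 lower (edgeR, also 0 lower at an unadjusted p under 0.05). In the 5 lists below without a gene called higher, the number higher at an unadjusted p under 0.05 was 0 for regulators, heme transport and NRF2 targets and 1 for heme synthesis and hypoxia targets, and DESeq2 and limma-voom called none higher in any of them. The higher count rested on single libraries and was 2 without Rank-knockout library 1, 3 without WT library 4 or Rank-knockout library 3, and 4 without WT library 1 or 3.

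Among regulators of iron and oxygen sensing, 10 of 17 were tested, 3 were called lower and none higher, with a median of -0.33, and none of the 3 was called lower when scaled to the villus markers. Fbxl5, the iron-sensing ligase subunit that marks iron regulatory protein for decay, stood at 57.8, 59.3, 75.2 and 67.4 CPM in WT libraries 1 to 4 and at 32.2, 43.6, 34.3 and 36.9 CPM in Rank-knockout libraries 1 to 4. Its log2 fold change was -0.82 ± 0.16 (SE, n = 4 per genotype, edgeR, adjusted p = 0.00188), without overlap. Egln3, an oxygen sensor that needs iron to hydroxylate hypoxia-inducible factors, changed by -1.04 ± 0.20 (SE, edgeR, adjusted p = 0.00131). Ireb2, which encodes the other iron regulatory protein, changed by -0.43 ± 0.15 (SE, edgeR, adjusted p = 0.0334), a call lost in 8 of the 18 alternatives and turned in direction under villus scaling. Hif1a did not pass at -0.37 ± 0.16 (SE, edgeR, adjusted p = 0.0964). Hepcidin (Hamp), its regulators Hjv, Bmp6 and Tmprss6 and the second transferrin receptor (Tfr2) had 0 counts in all libraries, and transferrin itself (Trf) had 13 counts over the WT and 17 over the Rank-knockout libraries.

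Of 17 other genes of iron entry, exit and carriage, 9 were tested. Steap1, a member of the metalloreductase family, rose from 6.12, 7.29, 8.13 and 3.30 CPM in WT libraries 1 to 4 to 24.4, 10.8, 12 and 11.0 CPM in Rank-knockout libraries 1 to 4, with a log2 fold change of 1.22 ± 0.34 (SE, n = 4 per genotype, edgeR, adjusted p = 0.0132). Slc39a8, a carrier of zinc, manganese and iron, rose by 1.37 ± 0.38 (SE, edgeR, adjusted p = 0.012), and Pcbp1, a chaperone that hands iron to ferritin, rose by 0.44 ± 0.14 (SE, edgeR, adjusted p = 0.0242). The Pcbp1 call was lost without WT library 1, 3 or 4 or Rank-knockout library 3 (edgeR, adjusted p = 0.0662, 0.0568, 0.106 and 0.092). Without Rank-knockout library 1 neither Steap1 nor Slc39a8 was past the threshold (edgeR, adjusted p = 0.0666 and 0.0562). Mcoln1, a lysosomal channel that releases iron, was lower at -0.60 ± 0.19 (SE, edgeR, adjusted p = 0.0286); the call was lost in 6 alternatives and the sign turned under villus scaling. Ncoa4, which takes ferritin to the lysosome, did not pass at -0.70 ± 0.26 (SE, edgeR, adjusted p = 0.0526). The list's median was 0.34.

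In heme synthesis 12 of 15 genes were tested, 2 were called lower and none higher, with a median of -0.15. This is near the 14.6% called lower over all genes tested. The 2 were Alas1, the first enzyme of the path outside red cells, at -0.53 ± 0.19 (SE, n = 4 per genotype, edgeR, adjusted p = 0.0433), and Abcb10, a mitochondrial transporter, at -0.55 ± 0.19 (SE, edgeR, adjusted p = 0.0357). The Alas1 call was lost in 10 and the Abcb10 call in 9 of the 18 alternatives, and both signs turned under villus scaling. Alas2, the red cell form, had 2 counts over the WT and 4 over the Rank-knockout libraries. In heme transport and breakdown 10 of 13 genes were tested, 4 were called lower and none higher, with a median of -0.40, and only 1 of the 4, Slc46a1, was still below 0 when scaled to the villus markers.

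Slc46a1, first described as a heme carrier and known as the proton-coupled folate transporter, had the largest decrease among the tested genes of the iron and heme lists. It measured 308, 330, 265 and 249 CPM in WT libraries 1 to 4 and 127, 119, 111 and 90.5 CPM in Rank-knockout libraries 1 to 4, a log2 fold change of -1.37 ± 0.15 (SE, n = 4 per genotype, edgeR, adjusted p = 9.88e-05). No library overlapped. Under villus scaling it was at -0.33 and not called (edgeR, adjusted p = 0.161). Flvcr1, a heme exporter, changed by -0.79 ± 0.18 (SE, edgeR, adjusted p = 0.00478), Abcg2, an efflux pump that also carries porphyrins, by -0.70 ± 0.17 (SE, edgeR, adjusted p = 0.00552), and Pgrmc1, a heme-binding membrane protein, by -0.75 ± 0.17 (SE, edgeR, adjusted p = 0.00412), and all 3 signs turned under villus scaling.

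In iron-sulfur cluster assembly 22 of 26 genes were tested, 5 were called higher and none lower (edgeR, 1 lower at an unadjusted p under 0.05), with a median of 0.34. Over all genes tested 15.8% were called higher. DESeq2 and limma-voom each called 3 of the list higher and none lower, and scaled to the villus markers 21 were called higher. Hspa9, the mitochondrial chaperone that passes on the new cluster, rose from 240, 201, 216 and 149 CPM in WT libraries 1 to 4 to 384, 316, 343 and 332 CPM in Rank-knockout libraries 1 to 4, by 0.77 ± 0.15 on the log2 scale (SE, n = 4 per genotype, edgeR, adjusted p = 0.00189), a call kept in all 18 alternatives. Glrx5, a carrier of clusters, rose by 0.42 ± 0.14 (SE, edgeR, adjusted p = 0.0366). Also called higher were Gfer, a sulfhydryl oxidase, at 0.67 ± 0.23 (SE, edgeR, adjusted p = 0.0384), and Lyrm4, a partner of the cysteine desulfurase, at 0.91 ± 0.33 (SE, edgeR, adjusted p = 0.0482), which was named after its value was seen. The Glrx5 call was lost in 5 and the Gfer call in 7 of the 18 alternatives.

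**Figure D5:**
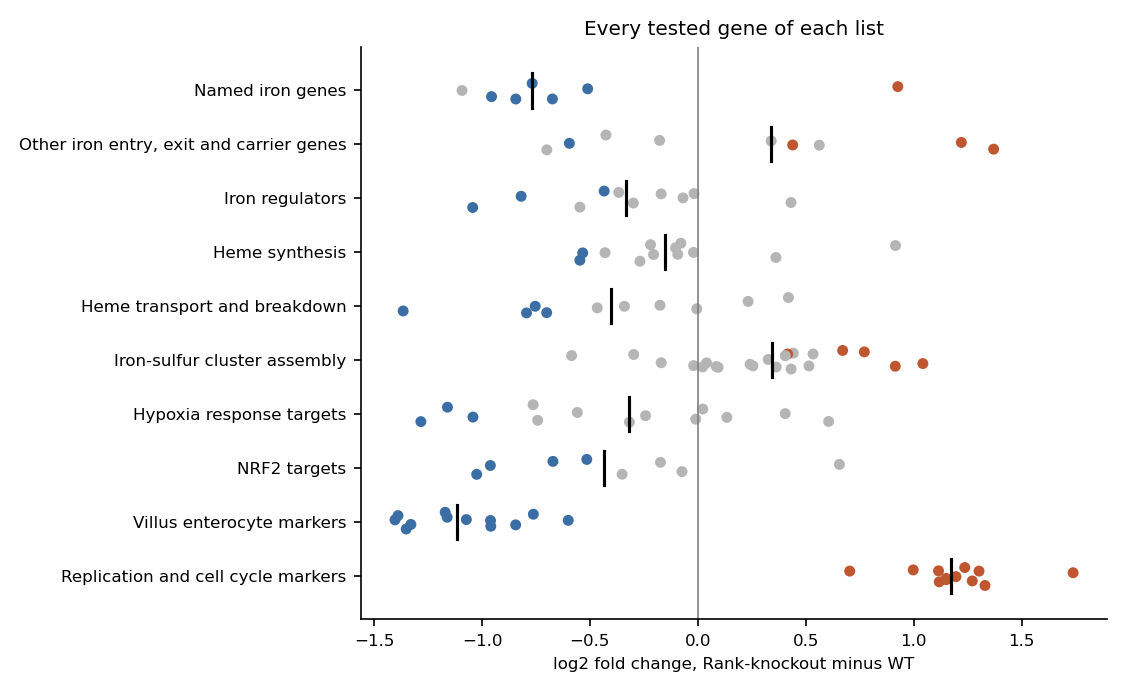
Log2 fold change, Rank-knockout minus WT (x axis), of every tested gene in each list (rows; vertical spread within a row has no meaning), in orange where called higher, blue where called lower and grey otherwise, with a black bar at the list's median. The medians lie at -0.33 for iron regulators, -0.40 for heme transport and breakdown and 0.34 for iron-sulfur cluster assembly, against -1.12 for the villus markers and 1.17 for the cell cycle markers; scaled to the villus markers no iron or heme gene of these lists was called lower.

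Of 15 targets of hypoxia-inducible factors 13 were tested, 3 were called lower and none higher, with a median of -0.32, and none of the 3 was called when scaled to the villus markers. Vegfa, the vascular growth factor, stood at 126, 118, 105 and 170 CPM in WT libraries 1 to 4 and at 61.5, 48.4, 62.0 and 59.9 CPM in Rank-knockout libraries 1 to 4, a log2 fold change of -1.16 ± 0.17 (SE, n = 4 per genotype, edgeR, adjusted p = 0.000275). Bnip3, a mitophagy receptor, changed by -1.28 ± 0.24 (SE, edgeR, adjusted p = 0.00137) and Pfkfb3, a regulator of glycolysis, by -1.04 ± 0.20 (SE, edgeR, adjusted p = 0.00182). Car9, Pdk1 and Kdm3a had estimates above 0, at 0.61, 0.41 and 0.13, and did not pass.

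Targets of NRF2, the oxidative stress factor that also drives Fth1 and Hmox1, were measured in 8 of 10 genes, with 4 called lower and none higher and a median of -0.43, and none of the 4 was called lower when scaled to the villus markers. Gclm, a subunit of the first enzyme of glutathione synthesis, stood at 167, 173, 169 and 191 CPM in WT libraries 1 to 4 and at 69.7, 89.7, 93.7 and 91.8 CPM in Rank-knockout libraries 1 to 4, a log2 fold change of -1.02 ± 0.14 (SE, n = 4 per genotype, edgeR, adjusted p = 0.000206). Osgin1 changed by -0.96 ± 0.18, Srxn1 by -0.67 ± 0.15 and Gclc by -0.51 ± 0.18 (SE, edgeR, adjusted p = 0.0011, 0.00389 and 0.0361). The Gclc call was lost in 10 of the 18 alternatives and its sign turned under villus scaling. Nqo1 was at -0.17 ± 0.20 and did not pass (SE, edgeR, adjusted p = 0.543).

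Of 10 mRNAs known to carry an iron-responsive element 8 were tested. Fth1, Epas1, Slc11a2, Tfrc and Slc40a1 are described above, and Cdc42bpa at 0.35 and Cdc14a at -0.05 did not pass the test (n = 4 per genotype, edgeR, adjusted p = 0.235 and 0.92).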

How the data were processed

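Intestinal epithelial cells were profiled in 4 WT and 4 Rank-knockout libraries with a 3′ mRNA kit and single 50-base reads. As the methods describe, the authors used BBDuk for trimming, removed ribosomal, mitochondrial, phiX and adapter sequences with bowtie2, aligned to GRCm38 (named mm10 in the submitters' processing notes) with STAR and counted sense reads per gene with featureCounts. The deposited values are raw counts per gene without normalization; DESeq2 was the authors' own test. No molecular identifiers are mentioned, so PCR copies count as reads and intervals cover counting error only.

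The main test was run in edgeR 4.0.16 (R 4.3.3): filterByExpr, TMM scaling, robust quasi-likelihood F-test, genotype as the only term, Benjamini-Hochberg adjustment over all genes tested and a threshold of 0.05. The SE was obtained from the F statistic. Alternatives used DESeq2 1.42.0, limma-voom (limma 3.58.1), other scalings, filters, depth, a replicate block and each library left out. The main fit was also run on simulated data in which 200 genes were changed. At 1.5-fold it recovered 8% of them, and 20% of its calls were false. At 2-fold it recovered 64.5% with 8.51% false, and at 4-fold 91.5% with 5.18% false. Small changes can thus be missed or wrongly called. In the real data 2993 genes were called, so these rates need not carry over. Symbols, positions and transcripts came from GENCODE M21, which held 54495 of the 54532 identifiers; 1 listed gene (Ahsp) was not matched. The genes and lists were chosen with earlier results of these data known. Named genes are the 10, up to 4 per list and direction with the smallest p among those called, central iron genes under the filter, the most abundant context markers and, for Slc40a1, Tfrc and Fth1, the 3 genes of most similar pattern; Gata4, Onecut2, Adh6a, Hif1a, Ncoa4, Hmox2, Cdc42bpa, Cdc14a, Car9, Pdk1, Kdm3a, Nqo1 and the zero-count genes named beside these were added after their values were seen. A few genes of the lists are not reported here.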

Additional observations from a re-analysis of the deposited data

Results flagged for a closer look

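Rank-knockout library 3 had a Slc40a1 level of 9.81 CPM, far from the 24.6, 25.4 and 27.0 CPM of the other 3 Rank-knockout libraries. The same library had the highest count of Slc40a1 per count of Pdx1 in its genotype, at 3.67 against 2.69, 2.72 and 2.75, from 22 counts of Slc40a1 and only 6 of Pdx1, so that counting error alone is large; Pdx1 was among the genes most like Slc40a1 across libraries, which fixes much of the evenness of this ratio. Both values lay further out than Dixon's 95% limit for 4 samples, which chance exceeds in about 1 of 20 groups, and 26 groups were examined. Leaving that library out changed the log2 fold change of Slc40a1 from -1.09 to -0.88, not past the threshold (edgeR, adjusted p = 0.334).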

How the results depend on the processing

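Tfrc and Hspa9 kept direction and call in all 18 alternatives, and Heph, Fth1 and Epas1 in 17 of 18, all but the villus scaling. Slc11a2 kept its call in 12 and Aco1 in 10. With library totals as sizes, 2566 genes were called higher and 859 lower, 3 of the named iron genes lower and 16 wider iron and heme genes higher; without the 50 most abundant genes 14 wider genes were higher. These scalings moved the median of all genes by 0.20 and 0.13, and omitting the filter moved it by 0.10.

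Scaled to villus markers, 8094 genes were called higher and 19 lower, 2 named iron genes higher and 0 lower, and 67 wider genes higher and 0 lower, since the median moved by 1.04 by construction of that scale. Log2 fold changes then turned to 0.16 for Slc11a2, 0.28 for Heph, 0.34 for Fth1, 0.53 for Aco1, 0.0637 for Epas1, 0.42 for Mcoln1, 0.23 for Fbxl5, 0.61 for Ireb2, 0.51 for Abcb10, 0.51 for Alas1, 0.31 for Pgrmc1, 0.25 for Flvcr1, 0.33 for Abcg2, 0.034 for Pfkfb3, 0.0109 for Gclm, 0.0825 for Osgin1, 0.37 for Srxn1 and 0.52 for Gclc.

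With each library left out in turn, 1020 to 1718 genes were higher and 1097 to 1564 lower, 1 named iron gene was higher and 3 to 5 were lower, and 2 to 12 wider genes were higher and 12 to 20 lower; the lowest number of higher genes came without WT library 4.

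Samples of the same replicate number did not deviate together in every pair (correlations across genes of 0.05, 0.15, -0.14 and 0.32), so the numbers were not used as pairs. With a replicate block 1708 genes were higher and 1602 lower, 4 named iron genes lower, and the adjusted p of Slc11a2 was 0.145 (edgeR).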
